A study of Arabidopsis thaliana with 8 samples.

Results

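The 34 genes described here make, sense and break down salicylic acid in Arabidopsis thaliana, or answer to it. They were chosen by locus from what is known of the pathway, with earlier results of these data known. All 34 were found among the locus names of the array probes, out of 24599 genes and unnamed probes that were bright enough to be tested, and all 34 passed the same filter on dim probes. The study compared whole 14-day-old seedlings of wild type Col-0 with seedlings of the voz1 voz2 double mutant in the same background, 4 one-colour arrays of each. Both groups grew untreated on MS agar at 22 °C with 16 h of light per day, so no group was infected or given salicylic acid. The proteins of VOZ1 and VOZ2 are zinc-finger transcription factors that bind phytochrome B and promote flowering. Nothing in the labels says that replicates of a genotype were grown apart, so the spread behind each p-value may be technical.

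Plants make salicylic acid in defence against pathogens that feed on living cells, mostly from isochorismate in the plastid. The EDS1 proteins and the transcription factors SARD1 and CBP60g switch this synthesis on, and pipecolate carries the alarm to distant leaves. NPR proteins sense the hormone and act through TGA transcription factors on defence genes, of which PR1, PR2 and PR5 are the classical markers.

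Levels are log2 processed signals minus each array's 75th percentile, and differences are voz1 voz2 minus wild type. Between 60.4% and 70.3% of the probes on an array were well above background. VOZ2 fell by 5.74 and VOZ1 by 1.50 in the mutant (limma adjusted p = 1.0e-04 and 0.0015), and neither gene's groups overlapped. The arrays lay on 2 slides, replicates 1 and 3 of both genotypes on slide 1 and replicates 2 and 4 on slide 2. Root markers were well above background throughout, and the mean of the 7 root markers ranged from -3.76 to -1.27 in wild type and from -1.43 to -0.35 in the mutant. All 7 had differences above 0, from 0.69 to 1.93 with a median of 1.12, where 47.2% of all genes lay above 0. Of these 7 markers 1 passed the test between genotypes, WOX5, at 0.69 (adjusted p = 0.045), named here after its values were seen. It missed the threshold in all 8 fits that left out an array (adjusted p 0.066 to 0.126). Median scaling (0.163), no filter (0.103) and normexp, where the difference was 0.15, also lost the call. The call held with slide (0.023) or replicate number (0.039) as a block, quantile scaling (0.041) and array weights (0.038). The mean of the 2 leaf markers with a value on every array ranged from 3.95 to 4.72 in wild type and from 3.57 to 3.93 in the mutant. All 5 leaf markers had differences below 0 (median -0.41), as 12984 of all 24599 genes did. Only 2 of these 5 had a value on every array, and 1 of them had a value on only 1 wild type array. With quantile scaling 1 of the 5 leaf markers lay above 0. Of the 3 senescence markers tested 1 passed, NAP, at -1.43 (limma adjusted p = 0.0093), also named after its values were seen. Its groups did not overlap. It passed in all 8 fits that left out an array (0.018 to 0.035) but not with normexp (0.106). The part of the organ mix in the differences below was not tested. In whole seedlings fewer cells of a type and less RNA per cell cannot be told apart.

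None of the 34 genes passed the threshold between the genotypes (limma, adjusted p under 0.05 over all 24599 genes), where 4.44% of all genes did. At an unadjusted p under 0.05 there were 7 of 34, or 20.6%, against 23.6% of all genes, and these were EPS1, SARD1 and TGA1 with values above 0 and PR2, FMO1, NIMIN3 and DMR6 with values below 0. NIMIN3 was the only gene of the 34 whose genotypes did not overlap, all 4 mutant values being lower, against 16.3% of all genes. The median difference was -0.12, and -0.030 over all genes, and 15 of 34 values lay above 0. For 12 of the 34 genes the 95% interval of the difference stayed within 1 log2 unit on either side of 0, so a 2-fold difference lay outside it. Fitted with slide as a block, 1 of 34 passed, where 16.1% of all genes did. Fitted with replicate number as the block, 2 passed, where 13.5% of all genes did.

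**Figure D1:**
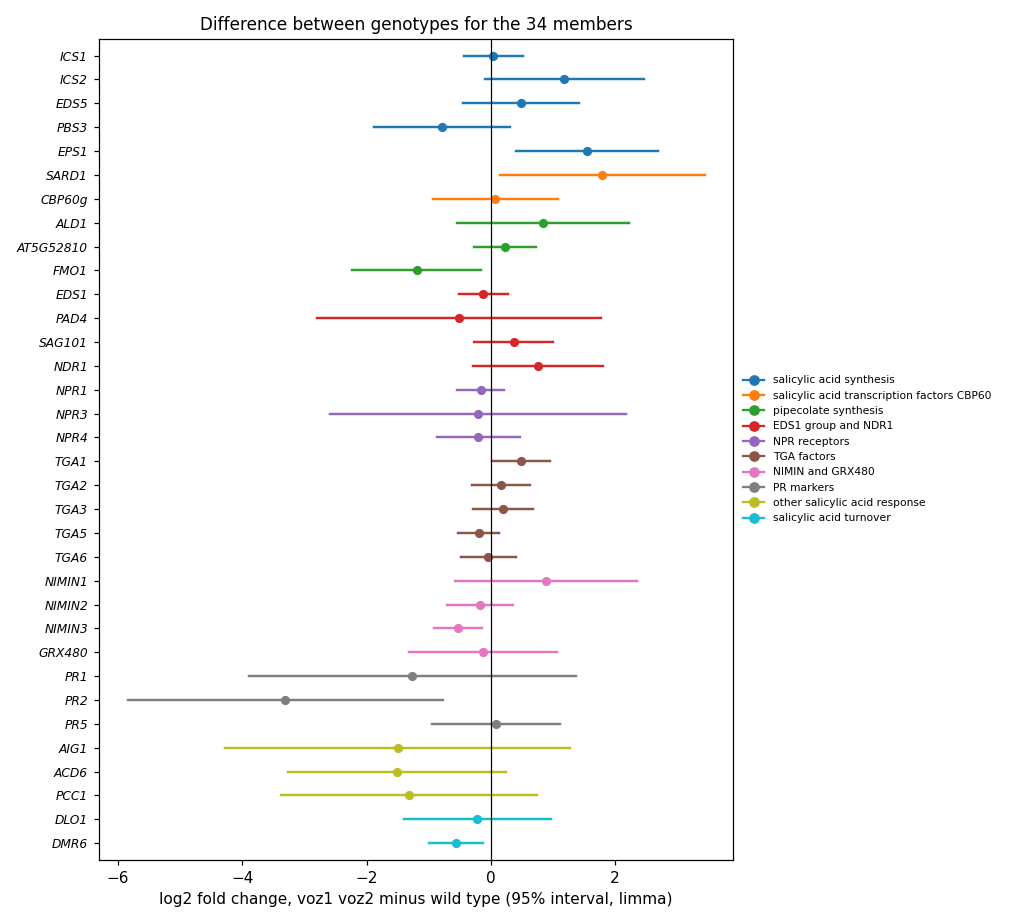
Difference between genotypes for each of the 34 genes, as log2 fold change (x axis, voz1 voz2 minus wild type) with its 95% interval from limma, coloured by role. The intervals of the TGA genes are narrow, that of TGA1 running from 0.022 to 0.95, while PR2, at -3.31, has an interval from -5.85 to -0.77.

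The 3 PR markers, secreted proteins with antimicrobial activity, did not behave alike. PR2 (AT3G57260), a glucanase, had levels of 1.72, 0.04, -3.40 and 0.02 in wild type replicates 1 to 4, and of -2.54, -4.44, -5.44 and -2.43 in the mutant replicates. Wild type replicate 3 lay among the mutant arrays, and the other 3 wild type arrays lay above all 4 mutant arrays. The difference was -3.31 (SE 1.11, adjusted p = 0.124), or 9.90-fold, and slides 1 and 2 taken alone gave -3.15 and -3.47. A block for replicate number brought it past the threshold (adjusted p = 0.024) and a block for slide did not (0.0925). Leaving out wild type replicate 3 made it -4.31 (adjusted p = 0.043), leaving out wild type replicate 1 made it -2.60 (0.225), and the other 6 such fits also missed the threshold. With normexp it was -2.41 (adjusted p = 0.255). PR5 (AT1G75040), a thaumatin-like protein, had 1.33, 0.41, -0.98 and 0.07 in wild type and 0.56, 0.64, 0.11 and -0.14 in the mutant. Its wild type values surrounded those of the mutant, and the difference was 0.086 (SE 0.45, 95% interval -0.94 to 1.11, adjusted p = 0.932). PR1 (AT2G14610), the most widely used marker of the hormone's action, was dim. It was well above background on 3 wild type and 2 mutant arrays, with -4.52, -4.80, -8.78 and -5.46 in wild type and -9.31, -5.94, -8.02 and -5.32 in the mutant. The 3 lowest values were those of wild type replicate 3 and mutant replicates 1 and 3, all on slide 1. The difference was -1.26 (SE 1.15, adjusted p = 0.551), and -0.30 with normexp.

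Outside the PR family, ACD6 and PCC1 had their highest wild type level on replicate 1 and their lowest on replicate 3, as PR2 did. ACD6 (AT4G14400), an ankyrin-repeat membrane protein that promotes salicylic acid signalling, had 2.76, 1.97, -1.09 and 0.74 in wild type and -0.42, 0.38, -1.15 and -0.46 in the mutant. PCC1 (AT3G22231), a small protein induced by pathogens and by the clock, had 2.14, 0.98, -2.59 and 0.08 in wild type and -1.05, -0.88, -2.11 and -0.62 in the mutant. In both genes wild type replicate 3 lay within or below the mutant range and the other 3 wild type arrays above all mutant arrays. Their differences were -1.51 (SE 0.77, adjusted p = 0.276) and -1.32 (SE 0.90, adjusted p = 0.418). Both values moved with single wild type arrays. Leaving out replicate 3 made them -2.24 and -2.23 (adjusted p = 0.070 and 0.074), and leaving out replicate 1 made them -0.95 and -0.65 (adjusted p = 0.470 and 0.686). AIG1 (AT1G33960), named for its induction by the bacterial effector AvrRpt2, had -2.39, -3.58, -7.15 and -2.09 in wild type and -6.67, -3.08, -6.44 and -5.02 in the mutant. Its groups overlapped, with a difference of -1.50 (SE 1.21, adjusted p = 0.495), which was -0.56 with normexp.

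**Figure D2:**
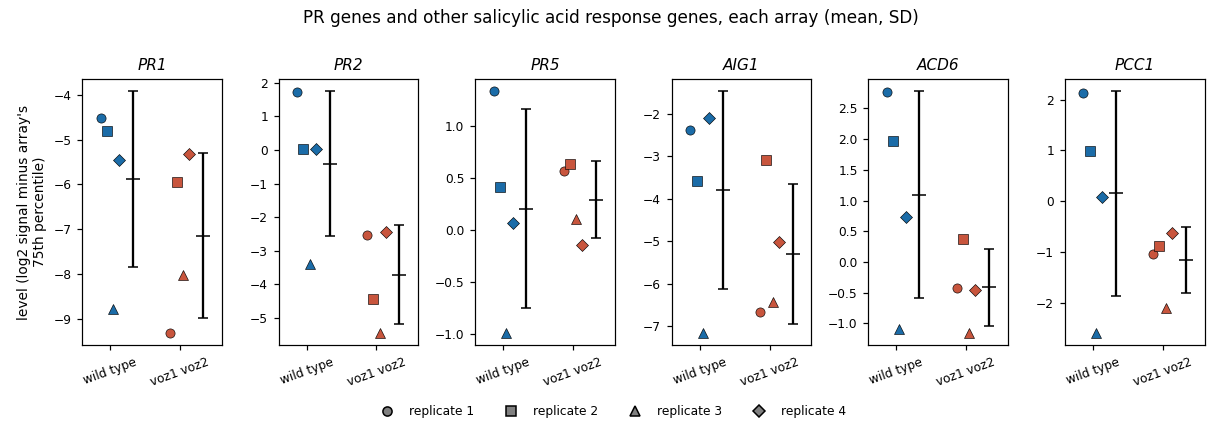
Level of 3 PR genes and 3 other salicylic acid response genes on each array (y axis, log2 signal minus the array's 75th percentile), wild type in blue and voz1 voz2 in red, with a symbol per replicate and bars for mean and SD. Wild type replicate 3 is the lowest wild type array in all 6 panels, at -3.40 for PR2 and -2.59 for PCC1.

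Among the synthesis genes, ICS1 (AT1G74710), the isochorismate synthase that makes most of the hormone under attack, hardly differed. Its levels were 0.29, -0.52, -0.28 and -0.33 in wild type and -0.22, -0.23, 0.16 and -0.38 in the mutant. The difference was 0.042 (SE 0.21, 95% interval -0.43 to 0.52, adjusted p = 0.929), and its other probe gave -0.0010. EPS1 (AT5G67160), which releases salicylic acid from its precursor conjugate, had the largest difference of the group. It had -3.02, -1.91, -3.72 and -2.37 in wild type and -2.06, -0.78, -1.72 and -0.26 in the mutant. Mutant replicate 1 lay below wild type replicate 2, yet on each slide both mutant arrays lay above both wild type arrays. The difference was 1.55 (SE 0.50, adjusted p = 0.110), or 2.93-fold, with 1.48 on slide 1 and 1.62 on slide 2. It passed under either block, at an adjusted p of 0.0095 for slide and 0.027 for replicate number. EPS1 missed the threshold with normexp (1.07, limma adjusted p = 0.186) and with no filter (0.178). All 8 fits that left out an array missed it too (0.074 to 0.239). ICS2 (AT1G18870), the second isochorismate synthase, had 1.19 (SE 0.56, adjusted p = 0.245). PBS3 (AT5G13320), which joins isochorismate to glutamate, had -0.78 (SE 0.48, adjusted p = 0.361), and EDS5 (AT4G39030), the exporter of isochorismate from the plastid, had 0.49 (SE 0.41, adjusted p = 0.511). EDS5 and PBS3 had SDs of 0.88 and 1.05 in wild type and of 0.29 and 0.32 in the mutant.

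Of the transcription factors that switch synthesis on, SARD1 (AT1G73805) had -2.70, -4.49, -6.63 and -4.48 in wild type and -3.44, -2.33, -2.76 and -2.56 in the mutant. Wild type replicate 1 lay inside the mutant range and the other 3 below it. The difference was 1.80 (SE 0.72, adjusted p = 0.179), and on 1 wild type array the probe did not reach well above background. It was 0.70 with normexp and 1.11 without wild type replicate 3, its lowest array. Its partner CBP60g (AT5G26920) had 0.073 (SE 0.44, adjusted p = 0.942), with 0.63 on slide 1 and -0.49 on slide 2. In the pipecolate branch FMO1 (AT1G19250), which hydroxylates pipecolate, had -3.98, -3.29, -5.16 and -4.89 in wild type and -4.75, -6.01, -5.36 and -5.99 in the mutant. Its difference was -1.19 (SE 0.46, adjusted p = 0.163), with -0.48 on slide 1 and -1.90 on slide 2, and was -0.52 with normexp. ALD1 (AT2G13810), which begins pipecolate synthesis, and AT5G52810 of the same list had 0.84 and 0.23, with an adjusted p of 0.442 and 0.560. ALD1 was dim and had 0.069 with normexp.

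No receptor gene and no gene of its partners passed the test. NPR1 (AT1G64280), the coactivator of salicylic acid responses, had -0.16 (SE 0.16, 95% interval -0.54 to 0.21, adjusted p = 0.592). NPR4 (AT4G19660) and NPR3 (AT5G45110), its repressing relatives, both had -0.20, with SEs of 0.29 and 1.04. The 5 TGA genes, which encode the DNA-binding partners of NPR1, had differences from -0.19 for TGA5 (AT5G06960) to 0.49 for TGA1 (AT5G65210). TGA1 had 1.49, 1.63, 1.15 and 0.95 in wild type and 1.85, 1.70, 2.11 and 1.50 in the mutant, which overlapped (SE 0.20, adjusted p = 0.195). TGA2 (AT5G06950), TGA3 (AT1G22070) and TGA6 (AT3G12250) had 0.17, 0.20 and -0.036. EDS1 (AT3G48090), the lipase-like hub of immune receptor signalling, had -0.12 (SE 0.17, 95% interval -0.52 to 0.28, adjusted p = 0.731). Its partners SAG101 (AT5G14930) and PAD4 (AT3G52430) had 0.37 and -0.51, and the second SAG101 probe gave 0.72. NDR1 (AT3G20600), which serves another receptor class, was near background and had 0.77 (adjusted p = 0.349), which became -0.033 with normexp. Probe sequences were not used here, so cross-hybridisation between close relatives such as TGA2 and TGA5 was not tested.

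The NIMIN proteins bind NPR1 and damp its action. NIMIN3 (AT1G09415) had 0.21, -0.43, -0.06 and 0.20 in wild type and -0.48, -0.59, -0.55 and -0.54 in the mutant. The 4 mutant values lay within 0.10 of each other and below all wild type values, wild type replicate 2 being the nearest. The difference was -0.52 (SE 0.17, adjusted p = 0.113), or 1.44-fold, and slides 1 and 2 taken alone gave -0.59 and -0.45. Leaving out wild type replicate 2 made it -0.66 (adjusted p = 0.041). NIMIN2 (AT3G25882) had -0.17 and NIMIN1 (AT1G02450) 0.89, with an adjusted p of 0.704 and 0.438. GRX480 (AT1G28480), a glutaredoxin that binds TGA factors, had -0.12 (adjusted p = 0.917), with -0.76 on slide 1 and 0.52 on slide 2.

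The hydroxylases DMR6 and DLO1 break salicylic acid down. DMR6 (AT5G24530) had 1.02, 0.83, 0.58 and 1.07 in wild type and 0.13, -0.01, 0.64 and 0.50 in the mutant. Mutant replicate 3 lay just above wild type replicate 3, and the other mutant arrays below all wild type arrays. The difference was -0.56 (SE 0.19, adjusted p = 0.131), with -0.41 on slide 1 and -0.70 on slide 2. DLO1 (AT4G10500) had -0.21 (SE 0.52, adjusted p = 0.844), and its wild type levels ran from -3.62 to -0.99.

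The 34 genes varied among the 4 wild type arrays more than genes in general. Their median SD was 0.82 in wild type and 0.43 in the mutant, against 0.33 and 0.29 over all genes. An SD over 1 was found in wild type for 14 of the 34 genes, against 7.03% of all genes, and in the mutant for 5, against 4.48%. The SD was larger in wild type for 25 of 34, where this held for 61.1% of all genes, and no difference in spread was tested. Among genes well above background on every array, the wild type range was 34.8-fold for PR2, 26.4-fold for PCC1 and 14.4-fold for ACD6, and the mutant range 8.02-fold, 2.81-fold and 2.89-fold. AIG1, PR1 and SARD1 were also wide in wild type, but each had an array not well above background there, so their ranges have no exact fold. With normexp the wild type SDs of these 3 were 0.77, 0.61 and 0.78, in place of 2.32, 1.97 and 1.61. PAD4 was wide in both genotypes, 10.5-fold in wild type and 11.2-fold in the mutant. The TGA genes, EDS1 and NPR1 had wild type SDs between 0.10 and 0.42.

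**Figure D3:**
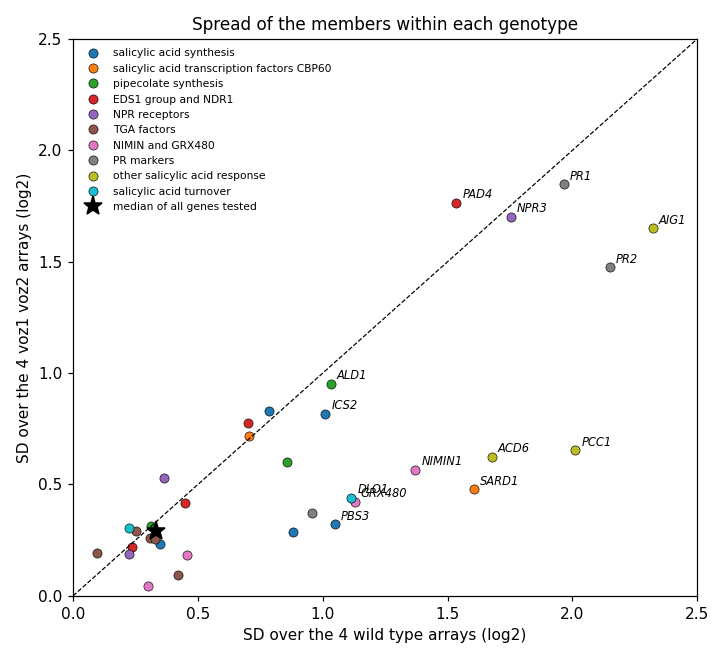
SD over the 4 wild type arrays (x axis) against SD over the 4 voz1 voz2 arrays (y axis) for each of the 34 genes, coloured by role, with equal spread on the dashed line and a star at the median of all genes tested (0.33 and 0.29). PCC1, ACD6, SARD1 and NIMIN1 lie far to the right at a mutant SD under 0.7, while PAD4, NPR3 and PR1 are wide in both genotypes. SARD1 and NIMIN1 are dim, and their wild type SDs were 0.78 and 0.64 with normexp.

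In this spread 2 arrays stood out. Wild type replicate 1 was the highest of the 4 wild type arrays for 21 of the 34 genes, against 18.6% of all genes. It lay above the genotype mean for 31, against 52.1% of all genes. Wild type replicate 3 was the lowest for 22 of the 34, against 26.1% of all genes. It lay above the mean for 4, against 55.7% of all genes. With normexp the counts of highest and lowest were 21 and 14, and in the deposited table, whose arrays are not scaled, 9 and 33. The median deviation of the 34 genes from their genotype mean was 0.49 on replicate 1, 0.19 on replicate 2, -0.66 on replicate 3 and -0.13 on replicate 4, and between -0.077 and 0.069 on the mutant arrays. Wild type replicate 3 also had the fewest probes well above background, 60.4%, and the lowest mean of the 3 tested senescence markers, 0.080 against 1.34 to 1.49 on the other wild type arrays. Of these 3 SAG13, named after its values were seen, was far lower on that array, at -2.85 on replicate 3 and 0.11 to 1.22 on the others. NAP and ORE1, the others of these 3, had 2.01 and 1.08 on replicate 3. On the other wild type arrays they ran from 2.02 to 2.57 and from 0.99 to 1.51, so the low mean came from SAG13. The part of these measures in the spread was not tested. Without wild type replicate 3 the count with an SD over 1 was 7 in place of 14, and all genes were at 6.09%. With normexp background correction, run with an offset of 50, it was 5, and all genes were at 4.46%. These 5 were PR2, PCC1, ACD6, PAD4 and ALD1. Among the dim genes, AIG1, PR1, SARD1 and NIMIN1 had a lower wild type SD with normexp. NDR1 (0.996 in place of 0.70) and ALD1 (1.05 in place of 1.03) had a higher one.

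**Figure D4:**
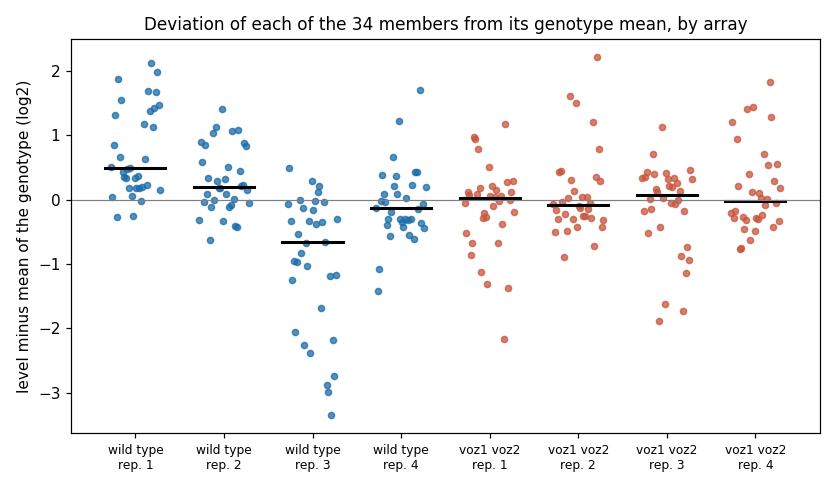
Level of each of the 34 genes minus the mean of its genotype (y axis, log2) on each of the 8 arrays, wild type in blue and voz1 voz2 in red, with a black bar at the median of the 34. The median is 0.49 on wild type replicate 1 and -0.66 on wild type replicate 3, and near 0 on the 4 mutant arrays.

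Of the 34 genes 7, or 20.6%, differed between the slides with genotype in the fit (limma, adjusted p under 0.05), against 28.3% of all genes, a comparison added after the data were seen. NPR3 had -1.93 and -4.05 in wild type and -3.20 and -3.50 in the mutant on slide 1, and lay between -0.45 and -0.26 on all 4 arrays of slide 2. Its slide difference was 2.79 (SE 0.42, adjusted p = 0.0048). PAD4 had -0.30 and -3.04 in wild type and -2.41 and -3.17 in the mutant on slide 1, and between -0.11 and 0.35 on slide 2 (2.40, SE 0.59, adjusted p = 0.025). In both genes the slide difference was far larger than that between genotypes, and wild type replicate 1 was the highest array of slide 1. NPR4 went the other way, with 0.98 to 1.11 on slide 1 and 0.078 to 0.47 on slide 2 (-0.77, SE 0.097, adjusted p = 0.0026). EPS1 had a mean of -2.63 on slide 1 and -1.33 on slide 2 (adjusted p = 0.0062). SAG101 was higher on slide 2 by 0.60, and AT5G52810 and TGA6 were lower there, at -0.46 and -0.44. A slide was scanned as a whole and held whole replicate numbers, so slide, scan and any growth shared by a number cannot be told apart.

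**Figure D5:**
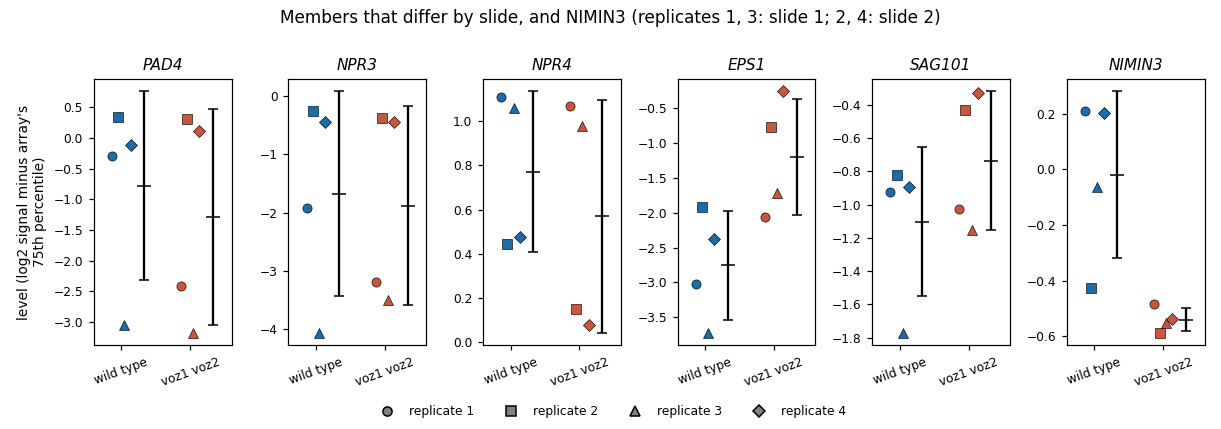
Level on each array (y axis, log2 signal minus the array's 75th percentile) of 5 of the genes that differ by slide, and of NIMIN3, wild type in blue and voz1 voz2 in red, with bars for mean and SD. Circles and triangles are replicates 1 and 3 on slide 1, squares and diamonds replicates 2 and 4 on slide 2, which lie between -0.45 and -0.26 for NPR3.

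A further 25 genes of the pathway that are not among the 34, such as paralogs, conjugating enzymes and helper receptors, were listed and all tested. Of these 2 rose and none fell, where 2.72% of all genes rose. The median difference was 0.14, and 4 of 25 passed under either block, where 16.1% (slide) and 13.5% (replicate number) of all genes did. TGA7, a close relative of TGA3, had 0.73, 0.93, 0.26 and 0.15 in wild type and 1.76, 1.44, 1.97 and 1.73 in the mutant, and all mutant arrays lay above all wild type arrays. It rose by 1.21 (SE 0.21, adjusted p = 0.022), or 2.31-fold, with 1.37 on slide 1 and 1.04 on slide 2. UGT74F1, a glucosyltransferase that stores salicylic acid as its glucoside, had -1.37, -0.95, -1.30 and -1.47 in wild type and -0.48, -0.15, -0.34 and -0.66 in the mutant, again without overlap. It rose by 0.87 (SE 0.17, adjusted p = 0.032), or 1.82-fold, with 0.93 on slide 1 and 0.80 on slide 2. Both calls were lost with normexp (adjusted p = 0.066 and 0.0955), and that of UGT74F1 also with median scaling (0.0627) or no filter (0.0747). TGA7 lost its call in 4 of the 8 fits that left out an array, those without wild type replicate 4 and mutant replicates 1, 3 and 4 (adjusted p 0.0527 to 0.0666). UGT74F1 lost it in 6 of these 8, all but those that dropped wild type replicate 2 or mutant replicate 4 (0.0642 to 0.0936). UGT76B1, which glucosylates salicylic acid and N-hydroxypipecolate, had 1.32 (SE 0.35, adjusted p = 0.068), with no overlap between the groups. Blocks for slide and replicate number gave it an adjusted p of 0.044 and 0.045. The helper receptor gene ADR1 had 0.48 (SE 0.20), with an adjusted p of 0.186, which the same blocks brought to 0.019 and 0.042.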

How the data were processed

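Total RNA of 8 seedling samples was labelled with Cy3 and scanned on Agilent arrays. The intensity values were made by the authors with Feature Extraction 9.1.3.1, named in the submitters' processing notes, and the processed signal is already background-subtracted per the file headers. Flags for outlier spots, for saturation and for lying well above background are 0 or 1, per the file headers. No spot was saturated. The series table that the authors deposited matches the natural log of that signal minus a constant of 6.42 (wild type) or 6.91 (mutant) and served as an alternative.

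Spots of a probe were averaged without outlier flags, and a probe was tested if at least 4 of 8 arrays had it well above background. The brightest probe stood for a locus. Genotypes were compared with limma 3.58.1 in R 4.3.3 (lmFit, eBayes, Benjamini-Hochberg over all genes, threshold 0.05), which was tested on simulated data. No value of the 34 genes was missing, and 32 had 1 probe. The number of arrays limits the precision, and correlations within a genotype were 0.96 to 0.99. Symbols came from a RefSeq gene table. No source used here names the array's genome build, so no coordinates are printed. The named genes are the 34, VOZ1, VOZ2 and the 4 other pathway genes with the smallest p, with markers given by counts and means. WOX5, SAG13, NAP and ORE1 are exceptions, named after their values were seen. The members and all gene lists were chosen with earlier results of these data known.

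Same-numbered arrays of the genotypes deviated together (correlations 0.32, 0.51, 0.46 and 0.61 over genes), which counts as pairing, but different numbers on a slide did too (0.27 to 0.54). Both slide and replicate number were therefore fitted as blocks. Other alternatives were quantile or median scaling, normexp (on median signals, as the files hold no mean signal), other filters, mean over probes, array weights, single slides and leaving out each array.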

Additional observations from a re-analysis of the deposited data

Results flagged for a closer look

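Of 80 groups of 4 arrays checked, 3 held an array far from the others. Its gap to the nearest of them took up nearly the whole range of the group. Chance alone gives about 1 in 20, and 3 of 80 is no more than that share. ALD1 was at -4.80 on wild type replicate 1 and between -6.97 and -6.74 on the other wild type arrays, a dim range in which 1 wild type array did not reach well above background. GRX480 was at 0.98 on wild type replicate 1 and between -1.36 and -1.12 on the others. SAG101 was at -1.77 on wild type replicate 3 and between -0.93 and -0.82 on the others.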

How the results depend on the processing

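No gene of the 34 passed under scaling, filter, probe, normexp, array weight, single-slide or deposited-table alternatives, and 1 passed with slide as a block and 2 with the replicate block. The count was 0 to 1 over the 8 fits without an array, the single calls being NIMIN3 without wild type replicate 2 and PR2 without wild type replicate 3. The median of the 34 lay between -0.20 and 0.12 over those fits and was -0.46 in the deposited table, whose constants shift all genes. The count of all genes, 1091, was 715 with median scaling, 94 with normexp, 514 with no filter, 3955 with slide and 3316 with the replicate block, 0 on either slide alone, 1653 with array weights, 70 in the deposited table and 387 to 1506 without an array. The 2 calls among other pathway genes became 1 with median scaling or no filter, 0 with normexp, single slides or the deposited table, 4 with either block, and 0 to 3 without an array. The 14 genes with a wild type SD over 1 became 5 with normexp, 22 in the deposited table, where arrays are not scaled, and 7 to 14 without an array. The sign turned for ICS1 (median scaling -0.074, slide 1 -0.037, array weights -0.15, deposited table -0.30, without an array -0.068 to 0.21), CBP60g (median scaling -0.043, slide 2 -0.49, array weights -0.22, deposited table -0.27, without an array -0.25 to 0.33) and PR5 (median scaling -0.030, array weights -0.26, deposited table -0.25, without an array -0.31 to 0.46). The same held for TGA6 (slide 1 0.0062, without an array -0.15 to 0.048), DLO1 (slide 1 0.010, -0.60 to 0.27), PAD4 (slide 2 0.094, -1.27 to 0.11), GRX480 (slide 2 0.52, -0.34 to 0.44), NPR3 (array weights 0.23, -0.997 to 0.34) and NIMIN2 (-0.29 to 0.040). It also held for TGA2 (array weights -0.00033, deposited table -0.17), TGA3 (deposited table -0.14), AT5G52810 (deposited table -0.11) and NDR1 (normexp -0.033). The cause of these turns was not tested. Dim probes, among them those of PR1, NDR1, ALD1, AIG1, SARD1 and NIMIN1, each with an array not well above background, limit what can be said of those genes.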
